A study of Mus musculus with 4 samples.

Results

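The genes around 20 Mb of mouse chromosome 3 include Agtr1b and Cpb1, which lie next to each other on the map of the array and were both far dimmer on the arrays with BMP2 than on those without it. The neighbourhood described here holds 7 genes: Cp, Hps3, Hltf, Gyg, Cpa3, Cpb1 and Agtr1b. They were found as all non-control probes on the array that carry one of these gene names, which gave 7 of 35080 gene names and 10 of 55681 probes. Cp, Hltf and Gyg had 2 probes each and the other genes 1. Of the 7 genes, 6 were well above background on at least 2 arrays and entered the fit over 24041 genes, and Cpa3 did not. Agtr1b and Cpb1 were picked for their BMP2 difference on these same arrays, and the other 5 for their position beside them. The BMP2 values of the members are therefore a description without a test.

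The neighbours have unrelated jobs. Agtr1b is one of a pair of rodent type 1 angiotensin receptor genes, and its product is a G protein-coupled receptor for angiotensin II, the peptide hormone that raises blood pressure. Cpb1 and Cpa3 are secreted metallocarboxypeptidases that trim residues from the carboxyl end of peptides: Cpb1 removes lysine and arginine and is known as a pancreatic digestive enzyme, and Cpa3 removes hydrophobic residues and is known from mast cell granules. Gyg is glycogenin, the self-glucosylating primer of glycogen synthesis. Hltf is a DNA translocase and ubiquitin ligase that acts on the sliding clamp PCNA at stalled replication forks. Hps3 is a subunit of BLOC-2, a complex needed to make lysosome-related organelles such as melanosomes. Cp is ceruloplasmin, the copper-bearing ferroxidase that oxidises iron as it leaves cells.

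Expression was measured in mouse primary osteoblasts kept in 10% serum, with 1 single-colour Agilent array for each of 4 treatments of 72 h. The treatments were BMP2 at 200 ng/ml together with LOXL2 at 4 µg/ml, BMP2 alone, LOXL2 alone, and neither protein. BMP2 is a growth factor that drives bone and cartilage formation, whereas LOXL2 oxidises lysines of matrix proteins and so links collagen chains. The labels enter the cells of both BMP2 arrays as osteoblasts and those of both other arrays as pre-osteoblasts, and give neither the age nor the strain of the mice nor whether the cultures came from separate preparations. No treatment was replicated. The BMP2 difference was measured once with LOXL2 present and once without it, and these 2 array pairs share no array. The fitted error of a gene mixes the disagreement between its 2 pairs, which may be technical, with a spread estimated from all genes. The spread from all genes has the larger weight, at 1.72 prior against 1 residual degrees of freedom. Zranb3, for example, differed by 0.37 in both pairs and still had an error of 0.05.

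The 4 arrays were alike. The 75th percentile of spot intensity was 742.9 with both proteins, 725.4 with BMP2, 723.7 with LOXL2 and 710.5 untreated, and 60.4% to 62.2% of spots were well above background. Per the headers they shared 1 slide and 1 scan, and each treatment had its own place on the slide, so these cannot be told apart. All 7 osteoblast markers (Runx2, Sp7, Bglap, Col1a1, Alpl, Ibsp and Spp1) were well above background on every array, and limma called 4 of them higher with BMP2. The background for such calls was high: 10.3% of all genes tested were called higher and 9.97% lower. Limma called 8 of 8 chondrocyte markers higher, and their summed intensity was 279214 with both proteins and 179504 with BMP2, against 46161 with LOXL2 and 38934 untreated. Among them, Matn1 was below background on both arrays without BMP2. It passed the filter only through the arrays where it was bright, so its call is no independent test. It called 4 of 10 macrophage markers lower (summed intensity 7452 with both proteins and 7537 with BMP2, against 8968 with LOXL2 and 9499 untreated). Of 6 endothelial markers, 4 were tested and 2 called lower (summed intensity 22069 with both proteins and 22593 with BMP2, against 22252 with LOXL2 and 22501 untreated). Nearly all of that sum was Kdr, which was not called, and the called genes were Cdh5 and Pecam1. The part of other cell types in the member values was not tested.

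The order along the chromosome, by probe position on mm9, was Cp, Hps3, Hltf, Gyg, Cpa3, Cpb1 and Agtr1b. The probes span 324.5 kb. Cpb1 and Agtr1b lie at one end, 64.1 kb apart, both on the minus strand, with Cpa3 33.8 kb and Gyg 127 kb on the other side of Cpb1. Beyond Agtr1b the array has no probe for 1178 kb, and no probe that passed the filter on background for 1439 kb. The BMP2 difference can therefore be followed gene by gene on one side of the pair only.

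Cpb1 was measured by a probe at chr3:20149467-20149526 (mm9, minus strand). Its intensity was 23.4 with both proteins and 28.0 with BMP2, against 673 with LOXL2 and 836 untreated. The groups did not overlap, and all 4 values were well above background. On the log2 scale, after the array's 75th percentile was subtracted, the BMP2 difference was -4.88 with LOXL2 present (29.5-fold) and -4.93 without it (30.5-fold). The fitted change was -4.91 ± 0.05 (SE). With normexp background correction, which adds an offset of 50 before the log2 step, it was -3.06.

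Agtr1b was measured by a probe at chr3:20213539-20213598 (mm9, minus strand). Its intensity was 3.0 with both proteins and 5.20 with BMP2, neither well above background, against 121 with LOXL2 and 182 untreated, both well above it. The difference between arrays was -5.37 with LOXL2 present and -5.16 without it on the log2 scale, and the fitted change was -5.27 ± 0.08 (SE). Because this probe was below background with BMP2, its fold is a bound that depends on the limit set for the dim side. For each array that limit was the lowest intensity found among probes well above background, 14.6 on both arrays. With it, Agtr1b was at least 10.4-fold lower with BMP2. The limit is lenient, since some brighter probes were not well above background, such as Steap4 at 15.8 with BMP2. The bounds given for Kit, Steap4 and A_55_P2124450 rest on the same kind of limit. With normexp the fitted change was -1.81. In RNA of a whole culture, fewer cells of a type that express a gene and less RNA per cell cannot be told apart.

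**Figure D1:**
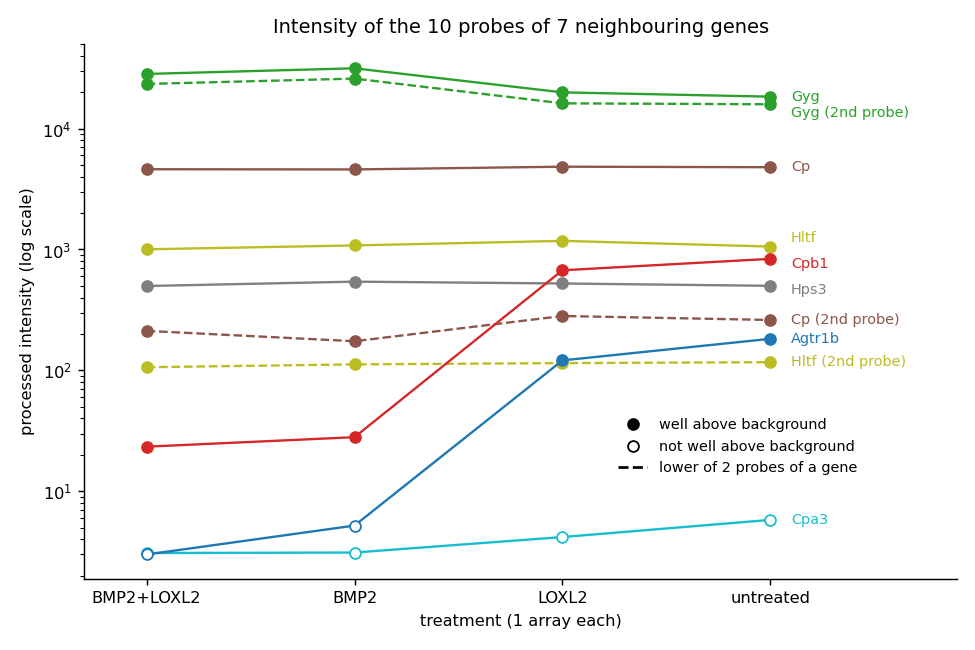
Processed intensity (log axis) of the 10 probes on each of the 4 arrays, with 1 point per array, joined by lines to guide the eye. Filled points are well above background and open points are not. Cpb1 is at 23.4 and 28.0 on the arrays with BMP2, against 673 and 836 without it, and Agtr1b is at 3.0 and 5.20 against 121 and 182. Cpa3 is open throughout.

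The promoter windows of Cpb1 and Agtr1b, the members with a large BMP2 difference, are shown with that of Gyg, the nearest measured member without one. Each runs 5′ to 3′ on the gene's own minus strand from 250 bases before the RefSeq start site to 50 after it, in RefSeq's GRCm38.p6 assembly, whose positions differ from mm9. Capitals mark TATAAA, the TATA box letters.
Cpb1, chr3:20275684-20275983: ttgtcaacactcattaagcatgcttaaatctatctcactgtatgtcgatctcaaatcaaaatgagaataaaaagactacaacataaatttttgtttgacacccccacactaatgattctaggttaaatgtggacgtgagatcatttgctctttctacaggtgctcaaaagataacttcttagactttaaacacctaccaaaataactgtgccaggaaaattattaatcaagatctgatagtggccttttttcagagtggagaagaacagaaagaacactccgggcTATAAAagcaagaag
Agtr1b, chr3:20367128-20367427: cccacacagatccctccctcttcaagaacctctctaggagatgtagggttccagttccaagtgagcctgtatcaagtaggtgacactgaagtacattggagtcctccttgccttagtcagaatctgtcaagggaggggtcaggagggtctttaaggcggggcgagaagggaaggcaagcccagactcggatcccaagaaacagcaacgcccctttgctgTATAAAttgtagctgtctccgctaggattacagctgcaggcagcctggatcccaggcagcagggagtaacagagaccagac
Gyg, chr3:20155067-20155366: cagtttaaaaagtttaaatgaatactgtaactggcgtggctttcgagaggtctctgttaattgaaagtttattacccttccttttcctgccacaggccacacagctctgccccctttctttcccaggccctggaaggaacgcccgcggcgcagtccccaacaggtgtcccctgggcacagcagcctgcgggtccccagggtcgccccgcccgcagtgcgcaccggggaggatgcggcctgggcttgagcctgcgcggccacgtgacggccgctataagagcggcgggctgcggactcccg

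The windows differ in base composition, with a GC content of 35.3% for Cpb1, 53.7% for Agtr1b and 62% for Gyg. In Agtr1b the TATAAA match begins at base -31, upstream of the start site, and in Cpb1 it begins at +36, inside the transcribed part. Of all 32851 promoter windows of this length, 13.6% hold TATAAA on either strand. The other motifs searched on both strands were the palindromic SMAD element GTCTAGAC (held by 0.213% of all windows), the BMP SMAD element GGCGCC (11.9%), the RUNX core TGTGGT (16.8%) and the cyclic AMP element TGACGTCA (1.79%). No match to these 4 was found in the 3 windows shown. Elsewhere in the neighbourhood, the Cpa3 window held TATAAA at -242 and -31 and TGTGGT at -73, and the Hps3 window held TGTGGT at -30 and GGCGCC at +37. Cp and Hltf have 2 annotated windows each, and in one window of each gene TATAAA was found, at -27 and -25 for Cp and at -207 for Hltf. These are matches of letters in short windows and not evidence of binding.

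Cpa3, the next gene after Cpb1 away from Agtr1b, could not be followed. Its probe at chr3:20115674-20115733 (mm9, minus strand) gave 3.09 with both proteins and 3.11 with BMP2, against 4.18 with LOXL2 and 5.80 untreated. None of these was well above background, so the values have no order and no fold is given. The mast cell markers, read because Cpa3 is a mast cell protease, were in part dim as well: 9 of 18 were not well above background on any array, among them the proteases Mcpt4 and Cma1 and the IgE receptor chains Fcer1a and Ms4a2. Of the 7 mast cell markers tested, limma called 1 lower and 1 higher, against 9.97% and 10.3% of all genes. The lower one was Il1rl1, a receptor for interleukin-33 (-2.30 ± 0.20, adjusted p = 0.0287). The receptor kinase Kit was at least 5.59-fold higher with BMP2. It was below background on both arrays without BMP2 and passed the filter only through the arrays where it was bright, so its call is no independent test. The summed intensity of the mast cell list was 1428 with both proteins and 1776 with BMP2, against 5035 with LOXL2 and 4949 untreated, and most of it was Il1rl1. The part of such cells in the result was not tested.

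Gyg was the member whose intensity was higher with BMP2. Its probe at chr3:20022018-20022077 (mm9, minus strand) gave 28295 with both proteins and 31506 with BMP2, against 19918 with LOXL2 and 18359 untreated. The BMP2 arrays were both above the others. The difference was 0.47 on the log2 scale with LOXL2 present and 0.75 without it, and the fitted change was 0.61 ± 0.10 (SE). A second probe, at chr3:20022033-20022092, gave 23384 with both proteins and 25894 with BMP2, against 16163 with LOXL2 and 15879 untreated, which is 0.50 and 0.68. The 2 probes share a run of 45 of their 60 bases and are not independent measurements.

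Hltf, Hps3 and Cp, farther from Cpb1 than Gyg, differed little between arrays with and without BMP2, apart from 1 probe of Cp. The brighter Hltf probe, at chr3:20017953-20018012 (mm9, plus strand), gave 1003 with both proteins and 1080 with BMP2, against 1178 with LOXL2 and 1057 untreated. These groups overlapped, and the fitted change was -0.13 ± 0.10 (SE). The other Hltf probe maps to chr3:20006486-20008014, a span longer than the probe, and gave 106 with both proteins and 112 with BMP2, against 115 with LOXL2 and 117 untreated. Its differences were -0.15 with LOXL2 present and -0.09 without it, so both BMP2 arrays were the lower ones by a small margin.

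The Hps3 probe at chr3:19896761-19896820 (mm9, minus strand) gave 498 with both proteins and 542 with BMP2, against 523 with LOXL2 and 500.2 untreated. The groups overlapped, and the fitted change was -0.01 ± 0.08 (SE). The brighter Cp probe, at chr3:19889071-19889130 (mm9, plus strand), gave 4609 with both proteins and 4590 with BMP2, against 4837 with LOXL2 and 4789 untreated, a fitted change of -0.10 ± 0.05 (SE).

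The probes of Cp did not give the same size of difference. The second Cp probe, at chr3:19907511-19907570, gave 212 with both proteins and 174 with BMP2, against 282 with LOXL2 and 261 untreated. Its BMP2 difference was -0.45 with LOXL2 present and -0.61 without it, with a mean of -0.53. Averaged over both probes, the fitted change of Cp was -0.31. The file assigns the 2 probes to different RefSeq transcripts of Cp, and the Hps3 probe lies between them on the opposite strand.

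Of the 6 members measured, 2 (Cpb1 and Agtr1b) were at least 2-fold lower in both array pairs, and 0 of 6 had a fitted change of at least 2-fold in the higher direction. Over all genes tested, 2.74% were at least 2-fold lower in both pairs. Since the pair was chosen on this contrast, the member count is not a test. What the choice did not fix is the behaviour of the genes beside them. Gyg, the nearest other member that could be measured, was higher with BMP2, and Hltf, Hps3 and the brighter Cp probe had fitted changes between -0.13 and -0.01.

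**Figure D2:**
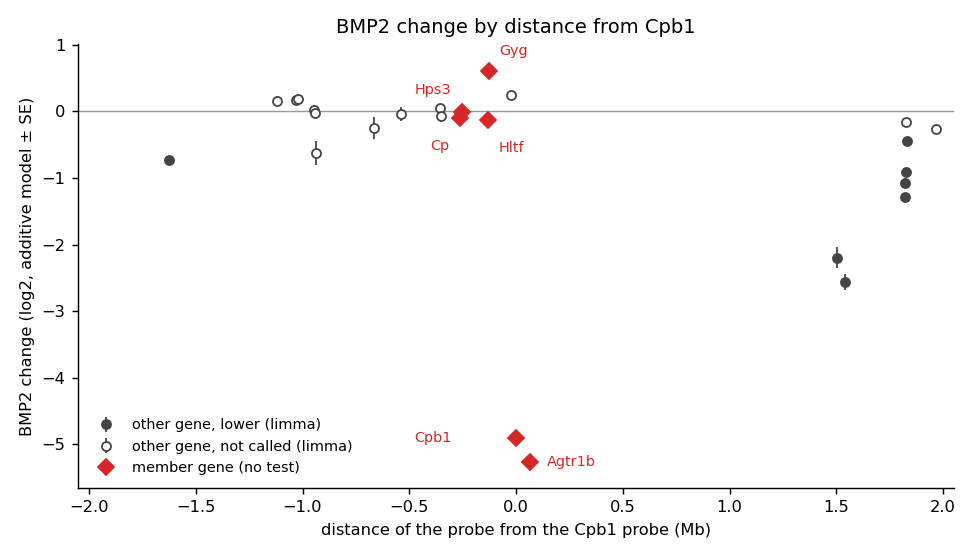
Fitted BMP2 change (log2, vertical axis, bars ± SE) against distance of the probe from the Cpb1 probe in Mb on mm9. Diamonds are members, filled circles other genes that limma called lower (2 of them below background on both BMP2 arrays) and open circles other genes not called. Each member is shown by its brightest probe, and Agtr1b was below background on both BMP2 arrays. The members shown other than Cpb1 and Agtr1b lie between -0.13 and 0.61, and no point lies between Agtr1b and the feature at 1503 kb. Cpa3 and the second Cp probe, whose mean BMP2 difference was -0.53, are not shown.

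Other features of the array within 2 Mb of the Cpb1 probe were tested, because they were chosen by position alone. The window held 67 further probes with 28 names, and 20 named features passed the filter. Limma called 7 of the 20 lower with BMP2, against 9.97% of all genes, and 0 higher, 13 were not called, and the median fitted change was -0.21 against 0.02 over all genes. Of the 7, 2 were below background on both BMP2 arrays and passed the filter only through the arrays where they were bright, so they could be called in no other direction. With the filter on all 4 arrays 5 were called lower, against 12.8% of all genes under that filter. Those 2 features and NAP103790-1, which was not called, drop out of the 20 under it. Within 1 Mb of Cpb1 there were 8 such features, all on the Gyg side. Limma called 0 of them in either direction, against 10.3% of all genes called higher and 9.97% lower. So few features, all on one side, do not show what happens on the Agtr1b side. The calls need the filter on dim probes: with no filter, limma called 0 of 35077 genes in the whole table, with a smallest adjusted p of 0.0900.

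The 3 features within 0.5 Mb were all on the Gyg side and none was called. NAP030387-1, an unnamed transcript probe at chr3:20123750-20123809 between Cpa3 and Cpb1, 25.7 kb from Cpb1, gave 123343 with both proteins and 122335 with BMP2, against 99365 with LOXL2 and 103804 untreated. Its fitted change was 0.24 ± 0.06 (SE, limma adjusted p = 0.0824). The groups did not overlap, and the BMP2 arrays were the higher ones. The size depended on the processing: with quantile normalization the change was 0.07 (limma adjusted p = 0.425). It was called with normexp (0.23, adjusted p = 0.0263) and with trend and robust settings (0.24, adjusted p = 0.000234). The transcript 4632415L05Rik had a fitted change of 0.04 ± 0.06 (adjusted p = 0.602), and an intergenic RNA probe on the reverse strand at chr3:19796345-19796404 had -0.07 ± 0.08 (adjusted p = 0.576).

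In the window, 1 of 12 features was called lower on the Gyg side and 6 of 8 on the Agtr1b side. Over all genes, 9.97% were called lower. The 1 on the Gyg side and 1 of the 6 were below background on both BMP2 arrays. Those could be called in no other direction. On the Agtr1b side no feature nearer than 1503 kb was measured, so calls there could only lie far from the pair. Except for 7530428D23Rik and A_55_P2124450, described below, the 6 lie close together at 1824 to 1830 kb. The 4 with a fitted change of at least 2-fold lower, against 3.54% of all genes, lay at 1503 kb or more from Cpb1, and 3 of them were well above background on all 4 arrays. The transcript 7530428D23Rik, at 1503 kb, gave 23.2 with both proteins and 27.4 with BMP2, against 123 with LOXL2 and 103 untreated, a change of -2.20 ± 0.16 (SE, limma adjusted p = 0.0262). With normexp it was -1.07. A probe with no gene name, A_55_P2124450, at 1542 kb, can be bounded only at 1.45-fold lower or more, which does not reach 2-fold, and its change was -0.37 with normexp. That probe was below background on both BMP2 arrays, at 3.09 with both proteins and 4.18 with BMP2, against 20.1 with LOXL2 and 21.4 untreated.

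The other features of at least 2-fold were a pair of intergenic RNA probes on the reverse strand at 1824 kb. The probe at chr3:21973396-21973455 changed by -1.29 ± 0.06 (adjusted p = 0.0209) and the one at chr3:21973307-21973366 by -1.07 ± 0.06 (adjusted p = 0.0228). They are not separate from their neighbour 2810416G20Rik (-0.90 ± 0.05, adjusted p = 0.0234): 1 probe of that transcript has the same sequence as one in an intergenic set. Tbl1xr1, a subunit of a nuclear corepressor complex at 1966 kb, was not called (-0.26 ± 0.05, adjusted p = 0.0688).

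LOXL2 did not enter the choice of the members, and its effect was tested. Limma called 0 of 6 members, against a background of 0%, with 0 of 24041 genes called at an adjusted p under 0.05 and 6.18% at an unadjusted p under 0.05. By limma, 2 of 6 members, Cpb1 and Agtr1b, had an unadjusted p under 0.05. That of Agtr1b rests in part on values below background and is not read. With trend and robust settings limma called 14 genes, and 0 of them were members. Agtr1b can be read for LOXL2 only on the arrays without BMP2, where its LOXL2 difference was -0.62 on the log2 scale, 1 array against 1. Its 2 values with BMP2 were below background and have no order, so its fitted LOXL2 change is not given. Cpb1 was lower with LOXL2 in both pairs, at -0.30 with BMP2 present and -0.34 without it, and its fitted change was -0.32 ± 0.05 (unadjusted p = 0.0127, adjusted p = 0.789). The other 4 members had fitted LOXL2 changes between -0.06 and -0.01, with adjusted p between 0.896 and 0.994.

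**Figure D3:**
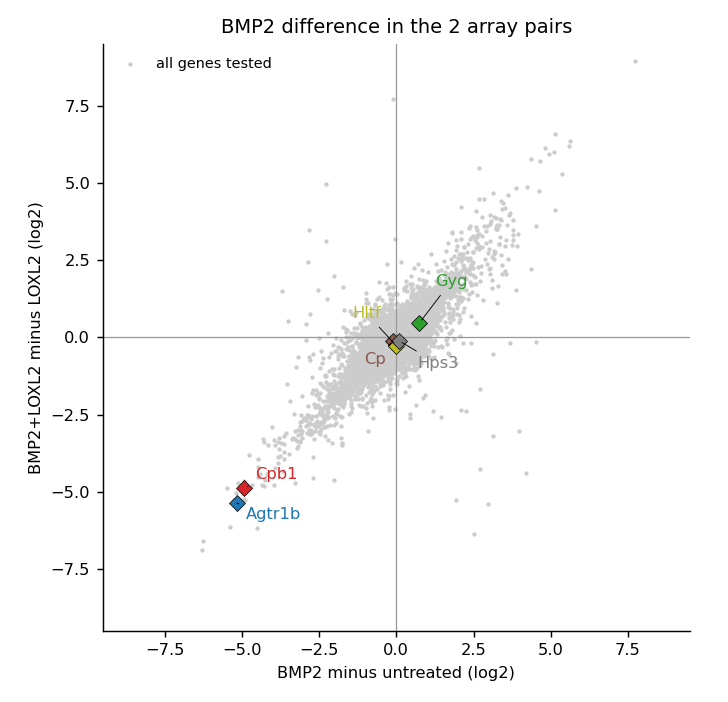
BMP2 difference on the log2 scale in the 2 array pairs that share no array, BMP2 minus untreated on the horizontal axis and BMP2+LOXL2 minus LOXL2 on the vertical axis. Grey points are all genes tested and diamonds the 6 measured members. Cpb1 (-4.93 and -4.88) and Agtr1b (-5.16 and -5.37) lie at the lower left, and Gyg (0.75 and 0.47) is on the opposite side of 0. Agtr1b was below background on both BMP2 arrays, so the sizes of its 2 differences are not measured.

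The genes most like Cpb1 over the 4 arrays were sought by the root mean square distance between log2 profiles, each centred on its own mean. The nearest were Myh1 (0.078) and Myh8 (0.096), both skeletal muscle myosin heavy chains on chromosome 11 whose paralogs are close in sequence. Tmem178 (0.11), a membrane protein on chromosome 17, and Ptgds (0.12), prostaglandin D synthase on chromosome 2, came next, and C130083M11Rik (0.14) followed but was below background with BMP2. Agtr1b came 13th, at a distance of 0.28. Seen from Agtr1b, the nearest were the retinoic acid binding protein Crabp1 (0.12) on chromosome 9 and the secreted Wnt modulator Sfrp2 (0.13), which is on chromosome 3. Cpb1 was the 4th (0.28), between Mup17 and Mup18, urinary protein genes of a near-identical family that were below background with BMP2. The likeness to Agtr1b rests on 2 arrays on which Agtr1b itself was below background. Cpb1 and Agtr1b were both picked for their BMP2 difference, which makes up most of these profiles. Their ranks beside each other follow from that choice and are no test of likeness.

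The genes that work with Agtr1b were read next, in a list of 18 renin-angiotensin genes of which 14 were tested. Limma called 2 lower and 2 higher with BMP2, against 9.97% and 10.3% of all genes, and 10 were not called. The median fitted change was 0.05, against 0.02 over all genes. The 2 that fell are the other angiotensin receptors. Agtr2, the type 2 receptor, gave 29.3 with both proteins and 32.9 with BMP2, against 300.5 with LOXL2 and 283 untreated, and fell by 3.26 ± 0.09 on the log2 scale (SE, limma adjusted p = 0.0206). With normexp the change was -1.92. Agtr1a, the paralog of Agtr1b, gave 276 with both proteins and 219 with BMP2, against 1205 with LOXL2 and 1374 untreated, and fell by 2.42 ± 0.16 (adjusted p = 0.0255). For both genes the values with BMP2 lay below all values without it.

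The probes of Agtr1a and Agtr2 share no run longer than 6 of 60 bases with the Agtr1b probe. Probes were compared only with each other, and none with the transcript of another gene. Binding of one receptor's RNA to another's probe was therefore not tested. Among the other genes of the list, the peptidase Anpep rose by 1.02 ± 0.05 (adjusted p = 0.0219) and the prorenin receptor Atp6ap2 by 0.82 ± 0.05 (adjusted p = 0.0243). The converting enzyme Ace (0.03 ± 0.06, adjusted p = 0.756) and the hormone precursor Agt (0.34 ± 0.08, adjusted p = 0.0888) were not called.

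Around Cpb1, 16 of 20 further carboxypeptidases and their inhibitor were tested, with a median of -0.16. Of these 6 fell and 2 rose, against 9.97% and 10.3% of all genes, and 8 were not called. Cpxm2, a member of the family without catalytic activity, gave 220 with both proteins and 180 with BMP2, against 1751 with LOXL2 and 1720 untreated, and fell by 3.16 ± 0.09 on the log2 scale (adjusted p = 0.0206). Cpz, a secreted matrix carboxypeptidase, fell by 2.72 ± 0.11 (adjusted p = 0.0206), and Cpa4 fell by 1.81 ± 0.11 (adjusted p = 0.0243). Latexin, Lxn, the inhibitor in the list, rose by 1.38 ± 0.09 (adjusted p = 0.0243).

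Cpb2 and Cpe, which act on basic residues, were not called, and other enzymes of the list were not sorted by the residues they remove. Cpb2, the plasma carboxypeptidase for basic residues, gave 23.6 with both proteins and 25.6 with BMP2, against 20.8 with LOXL2 and 27.8 untreated (0.00 ± 0.10, adjusted p = 0.997). Cpe, which removes basic residues from prohormones, had a fitted change of -0.01 ± 0.05 (adjusted p = 0.901). Cpa1 was well above background on the untreated array alone. Because Cpb1 is a pancreatic enzyme, acinar markers were read beside it: 6 of 15 were not well above background on any array, among them Pnlip, Prss2 and Ptf1a. Of 8 tested, limma called 1 lower and 1 higher, against 9.97% and 10.3% of all genes. The higher one was the elastase Cela1 (0.45 ± 0.05, adjusted p = 0.0390). The summed intensity of this list was 1106 with both proteins and 977 with BMP2, against 1301 with LOXL2 and 1332 untreated, and its part in the result was not tested.

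Around Gyg, 20 of 22 glycogen genes were tested. Limma called 5 higher and 4 lower, against 10.3% and 9.97% of all genes, 11 were not called, and the median was 0.10. Gys1, the glycogen synthase that extends the glycogenin primer, gave 4456 with both proteins and 4576 with BMP2, against 2790 with LOXL2 and 2761 untreated, and rose by 0.67 ± 0.06 (adjusted p = 0.0280). Stbd1, a glycogen-binding protein (1.27 ± 0.07, adjusted p = 0.0233), the liver-type phosphorylase Pygl (0.73 ± 0.06, adjusted p = 0.0273) and the branching enzyme Gbe1 (0.70 ± 0.06, adjusted p = 0.0272) rose as well. Phkg1, a catalytic subunit of phosphorylase kinase, was called lower at -0.70 ± 0.10 (adjusted p = 0.0475), a call that was lost with quantile normalization and with the mean over all probes of a gene.

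Around Cp, 19 of 22 iron and copper genes were tested, with a median of 0.26. Of these 8 rose and 1 was called lower, against 10.3% and 9.97% of all genes, and 10 were not called. The transferrin receptor Tfrc rose by 1.10 ± 0.07 (adjusted p = 0.0236), the metallothionein Mt2 by 0.87 ± 0.07 (adjusted p = 0.0283) and the metal transporter Slc39a8 by 0.82 ± 0.05 (adjusted p = 0.0243). Heph, hephaestin, the membrane ferroxidase of the same family as ceruloplasmin, gave 1452 with both proteins and 1190 with BMP2, against 815 with LOXL2 and 759 untreated, and rose by 0.71 ± 0.07 (adjusted p = 0.0341). With the mean over all its probes the Heph change was 0.60 and was no longer called. The iron exporter Slc40a1 was not called (0.12 ± 0.06, adjusted p = 0.254). The 1 gene called lower was the metalloreductase Steap4, at least 5.83-fold. It was below background on both BMP2 arrays and passed the filter only through the arrays where it was bright, so its call is no independent test, and its change was -1.04 with normexp.

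The lists around Hps3 and Hltf held 1 call between them, against 10.3% of all genes called higher and 9.97% lower. Of 20 genes of the BLOC complexes and of lysosome-related organelles, limma called 0 in either direction, with a median of 0.08, and the partners of Hps3 in BLOC-2 were among them: Hps5 at 0.07 ± 0.05 (adjusted p = 0.396) and Hps6 at -0.13 ± 0.06 (adjusted p = 0.252). Of 16 genes of fork remodelling and lesion bypass, 1 rose, the translocase Zranb3 (0.37 ± 0.05, adjusted p = 0.0453), and 15 were not called, with a median of 0.08. Shprh, a ubiquitin ligase related to Hltf, was among these (-0.10 ± 0.05, adjusted p = 0.267).

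**Figure D4:**
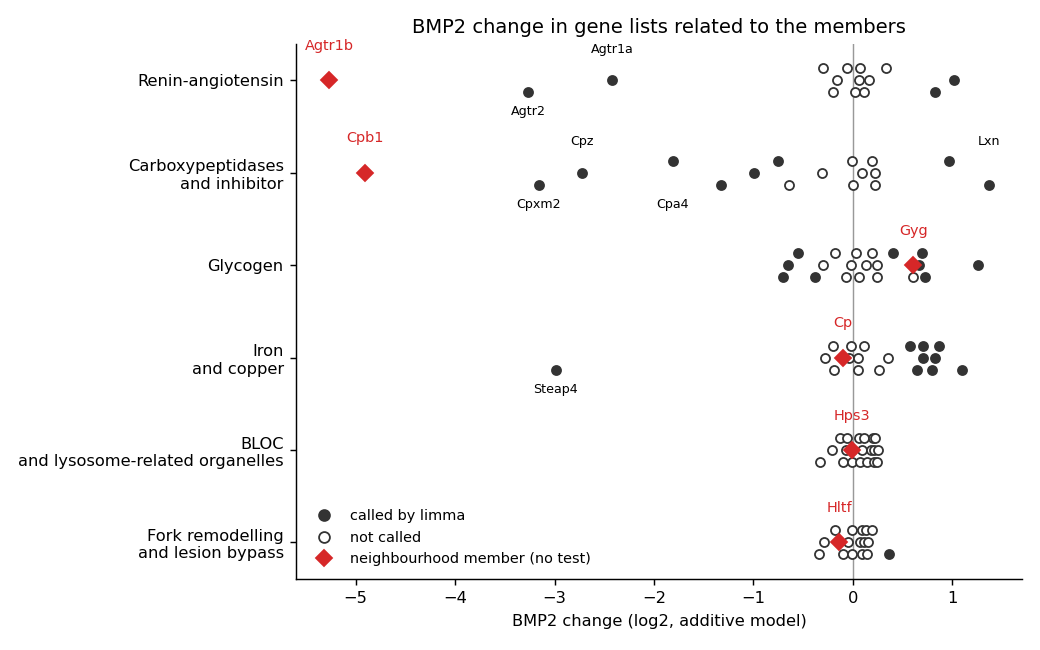
Fitted BMP2 change (log2) of the genes in 6 lists related to the members, 1 point per gene, filled where limma called it and open where not. Diamonds are the members. The angiotensin receptors Agtr2 (-3.26) and Agtr1a (-2.42) lie on the same side as Agtr1b, and no point of the BLOC list was called.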

How the data were processed

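RNA of the 4 cultures was hybridised to 4 single-colour arrays. According to the submitters' processing notes, the authors made the deposited intensity of each spot with Agilent Feature Extraction, version 10.7.3.1. Local background was subtracted, spatial trends were removed and signals not above background were given a surrogate value, per the file headers. Probe positions are on mm9, per the file headers.

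Here, log2 spot intensities were taken relative to the array's 75th percentile. Outlier spots (109 to 144 per array) were left out, and none was saturated. The number of arrays limits the precision. Probes well above background on at least 2 of 4 arrays were kept, and the brightest probe represented a gene, giving 24041 genes. The accessions of 26762 probes matched the RefSeq names. BMP2 and LOXL2 effects were fitted together with limma 3.58.1 (lmFit and eBayes, two-sided) under R 4.3.3 with data.table, version 1.17.8. The fit had 1 residual and 1.72 prior degrees of freedom, and Benjamini-Hochberg adjustment ran over all genes with a threshold of 0.05. The script was tested on simulated data.

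The members and lists were chosen with earlier results of these data known. Named were all members, features within 0.5 Mb or at least 2-fold changed within 2 Mb, the 5 nearest profiles, and from each list up to 4 called genes with the largest change and those in a member's own step. Ace, Agt, Tbl1xr1, the remaining features named within 2 Mb and the markers were chosen after their values were seen. A single gene is counted in its lists but not reported here. Alternatives were normexp on mean and background signals (offset 50), quantile normalization, median centring, other filters, the mean over probes, trend and robust settings, the deposited intensity values per probe and other window sizes.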

Additional observations from a re-analysis of the deposited data

Results flagged for a closer look

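For 3 members the sign of a difference was opposite in the 2 array pairs. Each rests on 1 array against 1, and none of these contrasts was tested. The BMP2 difference of Hps3 was -0.11 on the log2 scale on the arrays with LOXL2 and 0.09 on those without. Its LOXL2 difference was -0.15 on the arrays with BMP2 and 0.04 on those without. The BMP2 difference of Hltf was -0.27 with LOXL2 present and 0.00 without it, and its LOXL2 difference was -0.14 with BMP2 present and 0.13 without it. The LOXL2 difference of Gyg was -0.19 on the arrays with BMP2 and 0.09 on those without. The second probe of Gyg gave -0.18 and 0.00 for the same LOXL2 differences, and the second probe of Hltf gave -0.11 and -0.05.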

How the results depend on the processing

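No paired analysis was possible because each treatment had 1 array and the labels give no replicate numbers, and for the same reason no replicate could be left out. The count of members at least 2-fold lower with BMP2 stayed at 2 except under a filter of well above background on all 4 arrays, where it was 1, since Agtr1b left the fit. Over 9 settings the fitted change of Cpb1 ran from -4.91 to -3.06 and that of Gyg from 0.48 to 0.66. Over 8 settings that of Agtr1b ran from -5.27 to -1.81. The least change of both Cpb1 and Agtr1b came with normexp. The LOXL2 counts for members were 0 under each setting run, with adjusted p for Cpb1 from 0.479 to 0.796. Of other features within 2 Mb, 7 were called lower, against 5 with the filter on all 4 arrays and 0 with no filter on dim probes. Within 1 Mb, where all features measured lie on the Gyg side, 0 were called lower. The 4 with a fitted change of at least 2-fold lower became 3 with the filter on all 4 arrays, 0 within 1 Mb and 2 with normexp. None was called higher within 2 Mb, against 1 within 5 Mb, 3 with trend and robust settings and 1 with normexp. Of genes in the related lists, 31 were called, against 58 with trend and robust settings, 51 with normexp and 0 with no filter. Calls over all genes moved likewise: 4883 in the fit reported, 10389 with trend and robust settings, 9086 with normexp, 6386 with the filter on all 4 arrays, 4212 with quantile normalization, 5526 with median centring and 0 with no filter. Median centring moved the median change of all genes to 0.07, and the share of calls that were lower changed with it (2174 lower and 3352 higher, against 2398 lower and 2485 higher). Among the results recomputed, no called value changed sign. The cell type markers and 2810416G20Rik were not recomputed one by one. The cause of these differences between settings was not tested. The difference of differences of each member was recomputed under the same settings, a choice made after seeing the data: that of Cpb1 was 0.05 and, with normexp, 0.24, and that of Agtr1b has no order, since 2 of its values were below background. Signals near background limit Agtr1b and Cpa3, and 1 array per treatment limits every value.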
